A study of Rattus norvegicus with 60 samples.

Results

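The genes described here are those of the proteasome: 48 probe sets of 39 genes, out of 31042 probe sets in all, on 60 rat brain arrays. They were chosen by name and by signal. A probe set was taken when its only gene symbol began with Psma, Psmb, Psmc, Psmd or Psme and its mean over the 60 arrays lay at or above 7.68 on the log2 scale, the 40th percentile of the probe sets other than array controls. Of 55 probe sets of these families, 7 lay below that limit, and 18625 probe sets of all kinds, with 10378 genes named by a single symbol, lay at or above it. The 39 genes hold 37 proteasome genes and 2 genes of partner proteins that share the prefix, Psmc3ip and Psme3ip1. By role they are 7 genes of the core's alpha ring, 6 of its beta ring, 1 inducible beta subunit, 6 ATPases and 11 other subunits of the regulatory particle, 3 assembly chaperones and 3 activators. They lie on 16 chromosomes.

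The arrays compared 2 lines of adult rats in 5 brain regions, with 6 rats of each line and all regions taken from each rat. The tested line was a congenic line, NP.P, and the line it was set against was NP, which was bred for low alcohol preference. As known of the study, the congenic rats carried a segment of chromosome 4 from the alcohol-preferring P line on the NP background. Both lines were handled daily before the rats were decapitated and their brains dissected in the cold, the labels name no drug treatment, and the RNA of each rat and region was hybridised alone.

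The proteasome degrades proteins tagged with ubiquitin. Its core is a barrel of alpha rings, which gate the entry, and beta rings, of which Psmb5, Psmb6 and Psmb7 cut the protein chain. A regulatory particle of ATPases and non-ATPase subunits binds, unfolds and feeds in the tagged protein, while other caps such as the complex of Psme1 and Psme2 open the core without ATP. Interferon signalling is known to induce Psme1, Psme2 and the beta subunits Psmb8, Psmb9 and Psmb10, which replace the catalytic ones in the immunoproteasome, best known for making peptides for class I antigen presentation and, in brain, found largely in glia.

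Promoters of 35 of the 39 genes were found in RefSeq's table for the GRCr8 assembly, each running from 250 bases before the start of the gene to 50 after it. The positions are those of GRCr8, since the labels name no build for the arrays. The promoters of Psme1, Psme2 and Psmb10 are shown because these were the members with the largest striatal differences. That of Psmb4, a beta ring subunit, is shown as the member with the smallest striatal p-value. Psme1 lies on the plus strand at chr15:33038721-33039020, Psme2 on the minus strand at chr15:33052702-33053001, Psmb10 on the minus strand at chr19:50743243-50743542 and Psmb4 on the minus strand at chr2:185134512-185134811. All are written 5' to 3' on the gene's own strand, and capitals mark matches to the motifs searched for, on either strand.
Psme1: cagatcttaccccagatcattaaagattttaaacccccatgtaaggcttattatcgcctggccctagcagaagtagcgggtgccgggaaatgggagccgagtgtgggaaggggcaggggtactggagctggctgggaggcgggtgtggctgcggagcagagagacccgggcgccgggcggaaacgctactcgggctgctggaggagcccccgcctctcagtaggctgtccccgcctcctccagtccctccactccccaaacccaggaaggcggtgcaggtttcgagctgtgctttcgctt
Psme2: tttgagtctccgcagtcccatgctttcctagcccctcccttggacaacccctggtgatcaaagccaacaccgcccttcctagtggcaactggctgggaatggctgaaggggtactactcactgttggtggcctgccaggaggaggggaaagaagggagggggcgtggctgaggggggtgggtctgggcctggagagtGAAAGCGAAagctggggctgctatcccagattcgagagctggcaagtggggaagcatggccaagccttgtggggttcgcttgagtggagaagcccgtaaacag
Psmb10: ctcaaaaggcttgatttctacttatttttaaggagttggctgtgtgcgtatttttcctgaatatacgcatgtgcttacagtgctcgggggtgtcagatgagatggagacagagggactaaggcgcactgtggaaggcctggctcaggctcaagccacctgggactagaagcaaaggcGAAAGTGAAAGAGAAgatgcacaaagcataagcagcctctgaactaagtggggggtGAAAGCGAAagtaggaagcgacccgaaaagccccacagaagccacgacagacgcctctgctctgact
Psmb4: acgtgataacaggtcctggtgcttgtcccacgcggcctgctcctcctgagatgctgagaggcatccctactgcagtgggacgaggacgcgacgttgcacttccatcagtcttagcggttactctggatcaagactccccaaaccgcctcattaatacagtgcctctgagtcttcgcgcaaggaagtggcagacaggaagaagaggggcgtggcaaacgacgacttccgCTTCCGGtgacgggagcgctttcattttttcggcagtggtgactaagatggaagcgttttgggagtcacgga

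The capitals in the promoters of Psme2 and Psmb10 are GAAANNGAA, a core of the element bound by interferon regulatory factors, which is present once in Psme2 and 3 times in Psmb10, where the first 2 matches overlap. Psme1 held none of the motifs in this window. In Psmb4 the capitals are CCGGAAG on the other strand, a core bound by ETS factors. Over all members with a promoter, GAAANNGAA was found in 7 of 35 (20%; Psma4, Psmb2, Psmb3, Psmb10, Psmd7, Psmd11 and Psme2), against 9.71% of all 33469 promoters of the table. CCGGAAG was found in 13 of 35 (37.1%), against 8.75% of all. TGACNNNGC, the core of the antioxidant response element bound by Nfe2l1 and Nfe2l2, was found in 7 of 35 (20%; Psma3, Psmb2, Psmb5, Psmd1, Psmd3, Psmd9 and Psme4), against 12.1% of all. CCAAT, the box bound by NF-Y, was found in 18 of 35 (51.4%), against 37.5% of all. With 1 further A at the 3' end, the interferon core was found in 5 of 35 (14.3%), against 3.92% of all, and the antioxidant core in 4 of 35 (11.4%), against 3.00% of all. Both strands were searched, and none of the 4 motifs contains another. The shares of all promoters were counted over the whole table, with no selection by gene type, signal or base composition. These matches describe the letters of the windows and show no binding. Psme1 and Psme2 are near neighbours on chromosome 15, with 1 protein-coding gene between them.

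Values are log2 signals between 4.58 and 16.01. The 75th percentile of an array differed by up to 0.249 between arrays and was lowest in striatum, where it ran between 9.76 and 9.86, and in accumbens, where it ran between 9.79 and 9.94. In the other regions it ran between 9.88 and 10.01. Counts of members and values of the members described are therefore also given after quantile normalization where that changes a direction or a call. Arrays give no read depth, and their number limits the precision. A list of medium spiny neuron markers was higher in striatum for 9 of 9 genes and in accumbens for 8 of 9, and hippocampal excitatory markers were higher in hippocampus for 4 of 5. Cortical excitatory markers were higher in frontal cortex for 5 of 8 genes, and in striatum for 5 of 8 as well. Amygdala had no marker list. Of the 60 arrays, 7 stood apart from their own region: accumbens of NP animal 8 and congenic animal 9, amygdala of NP animal 6 and congenic animal 3, and hippocampus of NP animals 8 and 11 and congenic animal 3. The accumbens array of NP animal 8 and the amygdala array of congenic animal 3 were closest to hippocampus. The hippocampus array of NP animal 8 was closest to accumbens, and that of congenic animal 3 to amygdala. In both animals each of these arrays was thus closest to the region of the other. Whether they were exchanged was not tested, and they were kept under their labels. Results are given with all 60 arrays and, for part of the values, also with the 53 others.

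Which brain regions differ in proteasome gene signal was asked by setting each region against the mean of the other 4 in a model with the animal as a block, fitted with limma over all 18625 probe sets. A probe set was called when its Benjamini-Hochberg adjusted p was under 0.05. Of the 48 members, 45 differed between regions in some way (93.8%), against 93.3% of all probe sets. The 3 that did not pass were the dimmer of 2 probe sets of Psmd11, with an adjusted p of 0.0640, and 2 of the 3 probe sets of Psme4, with adjusted p of 0.191 and 0.666. Differences in bulk tissue such as these cannot tell apart fewer cells of a type from less RNA per cell.

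Striatum had the lowest proteasome signal. Of the 48 members, 36 were lower there than in the other regions, against 43.3% of all probe sets, and 2 were higher, against 26.3% of all. The members' median difference was -0.28 on the log2 scale, beside a median of -0.07 over all probe sets. Counted by gene, with the brightest probe set for each, 34 of 39 genes were lower and 0 were higher. That choice leaves out the 2 members called higher, which were dim probe sets of Psmb5 and Psmd9. No share over all genes is given beside this count. Striatum had the lowest mean of the 5 regions for 34 of 48 members (70.8%), against 35.4% of all probe sets.

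The mean of the 48 members on an array shows the same order. It ran from a lowest of 10.80 through a median of 10.90 to a highest of 10.97 in the 12 striatum arrays. In the other regions it ran 10.94, 11.06 and 11.11 in accumbens, 11.01, 11.18 and 11.24 in amygdala, 11.13, 11.16 and 11.20 in hippocampus and 11.12, 11.14 and 11.23 in frontal cortex. Of the other 48 arrays, 47 lay above the highest striatum array. After quantile normalization the striatum arrays ran from 10.90 to 11.01 and the other 48 from 11.05 to 11.19, with no overlap.

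**Figure D1:**
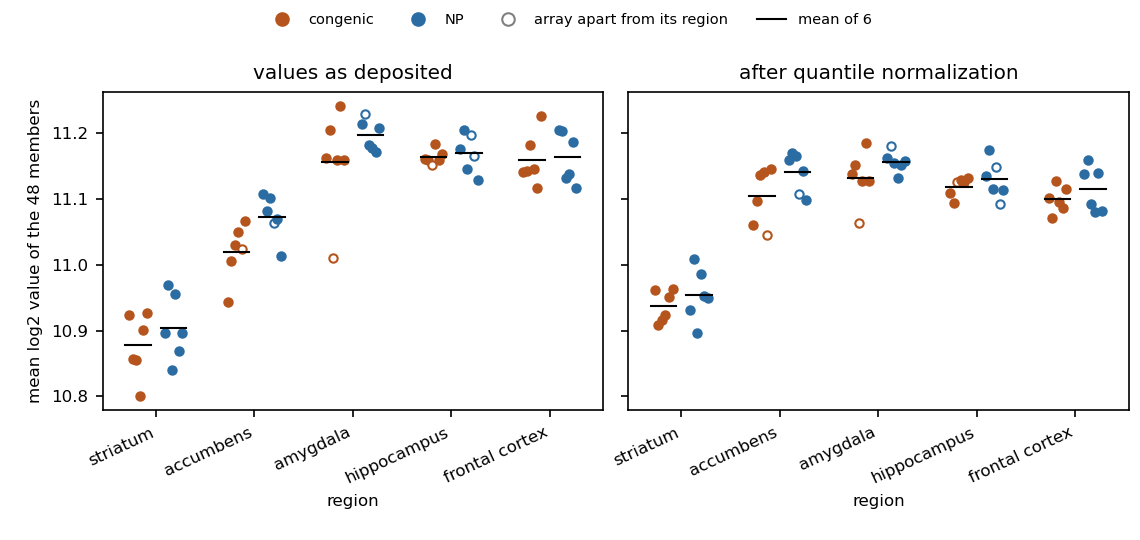
Each point is the mean log2 signal of the 48 member probe sets on 1 array, by region (12 arrays each) and line, with the signals as deposited in one panel and after quantile normalization in the other. The 12 striatum arrays sit between 10.80 and 10.97 as deposited and between 10.90 and 11.01 after quantile normalization, where all 48 other arrays lie above them.

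The differences in striatum varied with the signal itself, which was examined after their values were seen. Among all probe sets with a mean of 11 to 12, 54.5% were lower in striatum with a median of -0.13, and 13 of 13 members in that range were lower with a median of -0.33. Among those of 12 and over, 45.8% of all probe sets were lower with a median of -0.06, and 10 of 12 members with a median of -0.33. Between 10 and 11, 54.2% of all were lower with a median of -0.13, and 9 of 14 members with a median of -0.21. Between 9 and 10, 46.2% of all were lower, and 3 of 5 members with a median of -0.25. From the signal limit to 9, 31% of all were lower and 36.2% higher, and of 4 members 1 was lower and 2 were higher, with a median of 0.0031. Of 3 measures of RNA quality, 1 set striatum apart. The signal of the 3' minus that of the 5' probe set of the Gapdh control was 0.05 to 0.26 in striatum, and 3 of the 48 other arrays reached the lowest striatum value. For actin the same measure was 1.03 to 1.24 in striatum, and 23 of the 48 others reached its lowest value. For hexokinase it was 1.19 to 1.57, and 21 of the 48 others lay above the highest striatum array. The part of RNA quality in the result was not tested.

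All 7 alpha ring genes were lower in striatum, with a median of -0.33. The widest difference among them was that of Psma2, at -0.45 (limma adjusted p = 3.36e-15). All 6 beta ring genes were lower too, with a median of -0.38. Psmb4 had signals of 12.55, 12.65 and 12.76 in striatum (lowest, median and highest of 12 arrays). The medians were 13.01 in accumbens, 13.17 in amygdala, 13.18 in hippocampus and 13.11 in frontal cortex, and the lowest of those 48 arrays had 12.91. Every striatum array was therefore below every other one. The difference was -0.46 ± 0.02 (SE; limma adjusted p = 7.47e-21). Psmb1 differed by -0.44 (adjusted p = 9.03e-19).

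Psmb5, which carries the chymotrypsin-like site, had signals of 12.57, 12.63 and 12.67 in striatum on its bright probe set. In the other regions the medians were 12.86 in accumbens, 12.97 in amygdala, 13.00 in hippocampus and 12.93 in frontal cortex, and no array was under 12.74. The difference was -0.31 ± 0.02 (limma adjusted p = 7.48e-17). A dim probe set of the same gene was called the other way, 0.10 higher in striatum (adjusted p = 9.47e-04). Psmb7, with the trypsin-like site, was 0.10 lower (difference -0.10 ± 0.04, adjusted p = 0.0197). That call was lost after quantile normalization, with an adjusted p of 0.137, and without NP animal 5 or NP animal 7, with adjusted p of 0.0501 and 0.0532. Psmb6, with the caspase-like site, was listed beside other symbols on its probe sets and is not analysed here.

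The widest regional differences of the family were those of the activators Psme1 and Psme2 and the inducible subunits Psmb9 and Psmb10. Psme1 and Psme2 form a ring that caps the core. Psme1 had signals of 10.12, 10.30 and 10.47 in striatum, against medians of 10.77 in accumbens, 11.35 in amygdala, 11.17 in hippocampus and 10.79 in frontal cortex. The lowest of the 48 other arrays had 10.65, so the groups did not overlap. Its difference in striatum was -0.71 ± 0.05, or 1.63-fold lower (limma adjusted p = 4.39e-18). Psme2 had signals of 9.91, 10.03 and 10.11 in striatum, against medians of 10.41, 10.67, 10.51 and 10.42 in the same order of regions, and a lowest value of 10.28 among them. It was 1.40-fold lower in striatum, with a difference of -0.48 ± 0.03 (adjusted p = 2.44e-18). Psme4, an activator known for work on acetylated histones, was called lower on 1 of its 3 probe sets by -0.35 (adjusted p = 6.27e-11), while the other 2 differed by -0.08 and -0.05 and were called without the 7 arrays (-0.07, adjusted p = 0.0107, and -0.09, adjusted p = 0.0100).

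Psmb10, the one inducible beta subunit above the signal limit, had signals of 9.02, 9.19 and 9.29 in striatum, against medians of 9.40 in accumbens, 9.78 in amygdala, 9.73 in hippocampus and 9.78 in frontal cortex. It overlapped only with accumbens, where the lowest array had 9.18. Its difference was -0.53 ± 0.04, or 1.45-fold lower (limma adjusted p = 4.68e-15). Psmb9 and Psmb8 lay just below the limit, with means of 7.64 and 7.53, and were fitted with no filter on signal. Psmb9 had 6.85, 7.09 and 7.30 in striatum, against medians of 7.58, 7.89, 7.86 and 7.69 in the other regions in the same order. It was 1.61-fold lower (-0.69 ± 0.05, adjusted p = 2.46e-15 over all probe sets unfiltered). Psmb8 had 7.27, 7.37 and 7.51 in striatum and was -0.16 lower (adjusted p = 0.00714), with values that overlapped those of every other region. The span between the highest and the lowest regional mean was 0.97 for Psme1, 0.84 for Psmb9, 0.64 for Psmb10 and 0.63 for Psme2, with 0.54 for Psmc1 next, beside a median span of 0.39 over the members and 0.41 over all probe sets.

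**Figure D2:**
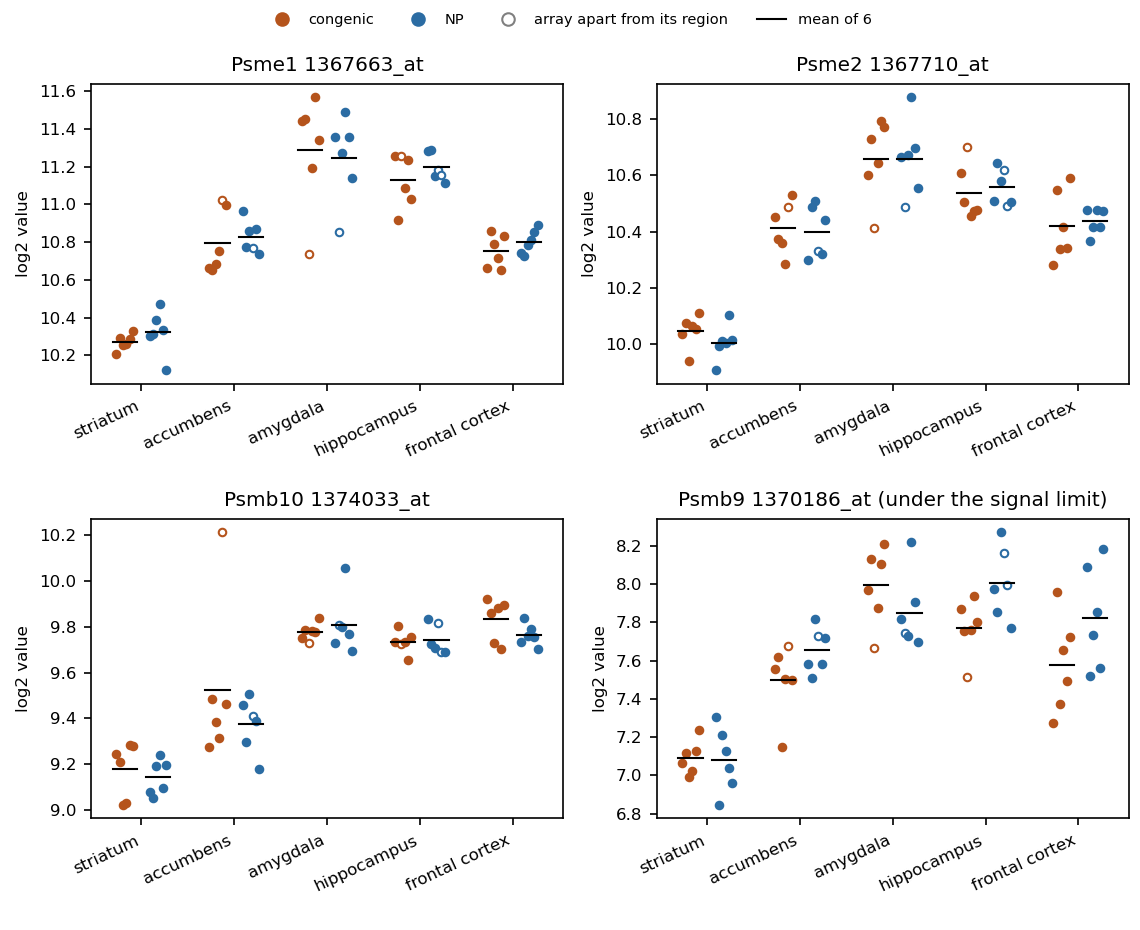
Log2 signals of Psme1, Psme2, Psmb10 and Psmb9 on each of the 60 arrays, by region and by line (6 arrays a group). Striatum is lowest in each panel: Psme1 runs from 10.12 to 10.47 there and Psme2 from 9.91 to 10.11, below all other arrays, and Psme1 reaches 11.57 in amygdala.

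In the regulatory particle, 5 of 6 ATPase genes were lower in striatum, with a median of -0.14, and after quantile normalization 3 of 6 were. Psmc2, the member on chromosome 4, was among them, with a difference of -0.14 ± 0.03 (limma adjusted p = 2.93e-05). Psmc5 was the exception. Of the 11 non-ATPase genes, 8 were lower, with a median of -0.26. Psmd14, the enzyme that removes ubiquitin from the bound protein, had 11.31, 11.48 and 11.57 in striatum, against medians of 11.81 in accumbens, 11.80 in amygdala, 11.85 in hippocampus and 11.90 in frontal cortex and a lowest value of 11.59. The difference was -0.39 ± 0.03 (adjusted p = 1.18e-14). The 3 non-ATPase genes that did not pass were Psmd1 with 0.05, Psmd2 with -0.03 and Psmd3 with -0.0026. After quantile normalization Psmd1 was higher by 0.15 (adjusted p = 0.00606) and Psmd3 by 0.10 (adjusted p = 7.25e-04), and without the 7 arrays Psmd1 by 0.08 (adjusted p = 0.0210). Psmd1 and Psmd2 encode the scaffold of the base of the particle. All 3 assembly chaperones were lower. Psmd10, also called gankyrin, had 10.70, 10.82 and 10.96 in striatum, against medians of 11.21, 11.31, 11.33 and 11.26 in accumbens, amygdala, hippocampus and frontal cortex and a lowest value of 11.05. It differed by -0.46 ± 0.03 (adjusted p = 4.14e-19). Psmd9 was lower by -0.25 on its bright probe set, while its dim probe set was 0.08 higher (adjusted p = 0.0373). The call of this dim probe set was lost after quantile normalization (adjusted p = 0.121) and without any 1 of 6 animals, 3 congenic (1, 9 and 10) and 3 NP (5, 7 and 8), with adjusted p of 0.0570 to 0.136.

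All 12 striatum arrays lay below all 48 others for 6 members (12.5%: Psmb4, Psmb5, Psmd10, Psmd14, Psme1 and Psme2), against 2.07% of all probe sets. Without the 7 arrays that stood apart, 11 members did (22.9%), with Psma2, Psma6, Psma7, Psmb1 and Psmb2 added, against 3.51% of all. For no member did all striatum arrays lie above the others. This count was chosen after the values were seen. The striatal result itself was 39 lower and 3 higher members without those 7 arrays, and 33 lower and 3 higher after quantile normalization with a median of -0.18. Over the signal ranges given above, 32.6% to 40.7% of all probe sets were lower after quantile normalization and 27.5% to 34.6% higher.

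**Figure D3:**
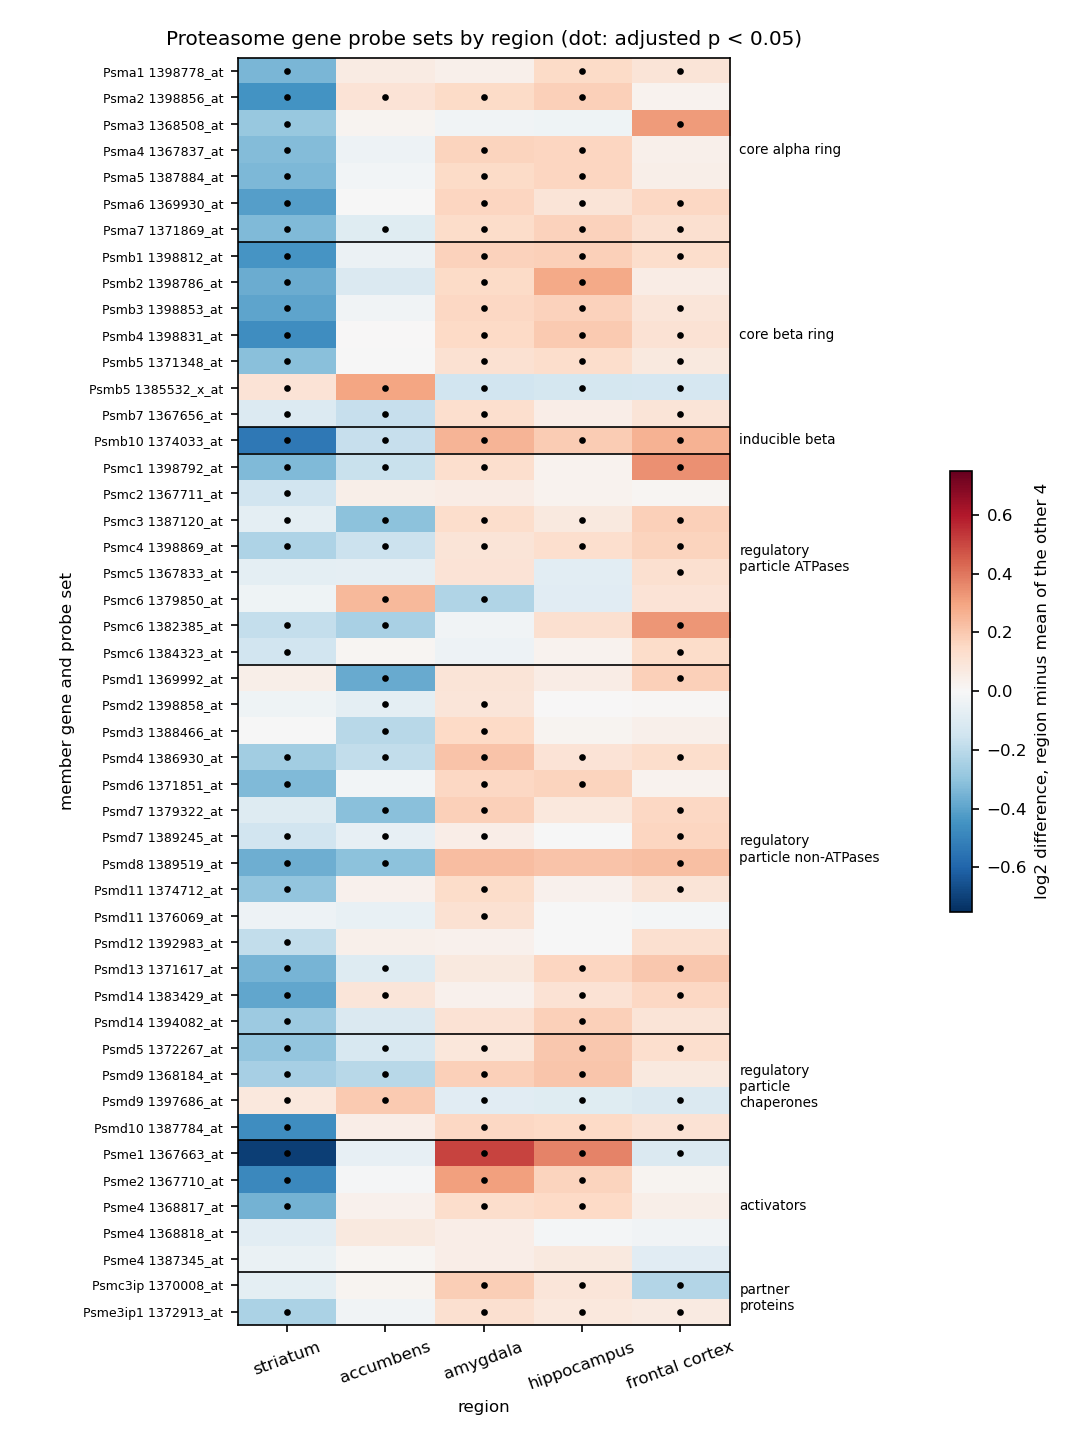
Log2 difference of each region from the mean of the other 4, for the 48 member probe sets grouped by role, with a dot where limma's adjusted p is under 0.05. The striatum column is below 0 for most members, and the amygdala column has its highest value for Psme1, at 0.51.

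Markers of other cell types also differed in striatum. Of 12 microglial genes measured, 8 were lower and 1 higher, and their mean signal was 9.47 to 9.61 there, against 9.58 to 10.24 in the other regions. Of 8 meningeal fibroblast genes, 7 were lower, with means of 7.95 to 8.78 against 8.19 to 10.77. Of 10 oligodendrocyte genes, 8 were higher, with means of 12.69 to 12.96 against 11.98 to 12.99. Of 9 astrocyte genes, 6 were lower and 1 higher, of 8 endothelial genes 5 were lower and 1 higher, and of 12 genes of neurons in general 4 were higher and 4 lower. No marker is at 0 on the arrays' scale. The part of these cell types in the proteasome differences was not tested.

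As deposited, amygdala was the region with the most members higher. Of the 48 members, 31 were higher than in the other regions, against 29.1% of all probe sets, and 3 were lower, against 18.6% of all. The median difference was 0.12, beside 0.04 over all probe sets. After quantile normalization 9 of 12 members with a mean of 12 and over were higher, 7 of 13 of 11 to 12 and 4 of 14 of 10 to 11. So were 2 of 5 members of 9 to 10 and 1 of 4 under 9. Lower were 3 members of 10 to 11 and 2 under 9. Over these signal ranges 19.3% to 27.8% of all probe sets were then higher and 20.4% to 26.2% lower. All 6 beta ring genes, 5 of 7 alpha ring genes, 3 of 6 ATPases, 6 of 11 non-ATPases, all 3 chaperones and all 3 activators were higher. Without the 7 arrays 5 of 6 ATPases and 10 of 11 non-ATPases were. After quantile normalization 5 of 6 beta ring genes, 4 of 7 alpha ring genes and 2 of 6 ATPases were higher. So were 5 of 11 non-ATPases, 2 chaperones and 2 activators, while 1 alpha ring gene and 1 ATPase were lower. Psme1 had 10.74, 11.35 and 11.57 in amygdala and was 1.42-fold higher than in the other regions (0.51 ± 0.05, limma adjusted p = 2.45e-12). Its lowest amygdala value was that of congenic animal 3, 1 of the 7 arrays, while the other congenic arrays had 11.19 to 11.57. The amygdala arrays overlapped with those of accumbens, hippocampus and frontal cortex, and without the 7 arrays the difference was 0.60. Psme2, with 10.41, 10.67 and 10.88, was 1.24-fold higher (0.31 ± 0.03, adjusted p = 3.99e-11), and 0.35 higher without the 7 arrays. Psmb10 was 0.26 ± 0.04 higher (adjusted p = 3.28e-06) and Psmd4, a ubiquitin receptor of the particle, 0.21 ± 0.04 higher (adjusted p = 3.11e-05). Psmb9, fitted with no filter, was 0.36 higher (adjusted p = 5.01e-07).

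Psmb5 was 0.11 higher in amygdala on its bright probe set (adjusted p = 4.96e-05) and 0.15 lower on the dim one (difference -0.15, adjusted p = 2.46e-05), and Psmb7 was 0.13 higher (adjusted p = 0.00677). The other members called lower were Psmc6, an ATPase, on its probe set of middle signal (mean 10.40), by -0.23 ± 0.07 (adjusted p = 0.00378), and the dim probe set of Psmd9 by -0.08 (adjusted p = 0.0435). The second of these calls was lost when any 1 of 7 animals was left out (congenic 1 and 10 and NP 5, 6, 7, 11 and 12), with adjusted p of 0.0580 to 0.110. Without the 7 arrays that stood apart, this probe set of Psmd9 was called, at -0.11 (adjusted p = 0.00478). Psmd14 with 0.03 and Psmc2 with 0.05 were not called, and Psmc2 was called without the 7 arrays (0.09, adjusted p = 0.00390). Of the 12 microglial genes 10 were higher in amygdala, with mean signals of 9.68 to 10.24 against 9.47 to 9.89 in the other regions. Of the 8 meningeal genes 7 were higher, of the 9 astrocyte genes 6 were higher and 1 lower, and of the 10 oligodendrocyte genes 8 were lower. The part of these cells in the amygdala values was not tested.

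Hippocampus had 27 members higher, against 33.1% of all probe sets, and 2 lower, against 21.2% of all, with a median of 0.11 beside 0.04 over all. After quantile normalization 19 were higher and 5 lower. Over the signal ranges used for striatum, 22.2% to 27.6% of all probe sets were then higher and 21.9% to 29.2% lower. Of the alpha ring 6 of 7 genes were higher, of the beta ring 5 of 6, of the ATPases 2 of 6, of the non-ATPases 4 of 11, and all 3 chaperones and 3 activators were. After quantile normalization these were 4 alpha ring, 5 beta ring, 1 ATPase and 2 non-ATPase genes, 3 chaperones and 2 activators. Lower were then 1 alpha ring, 1 ATPase and 1 non-ATPase gene. Psme1, with 10.92, 11.17 and 11.29, was 1.30-fold higher (0.37 ± 0.05, limma adjusted p = 4.30e-09). Psmb2, a beta ring subunit, had 12.06, 12.18 and 12.50 and was 0.28 ± 0.05 higher (adjusted p = 1.93e-05). The chaperones Psmd9, on its bright probe set, and Psmd5 were 0.21 ± 0.04 (adjusted p = 1.61e-05) and 0.20 ± 0.03 higher (adjusted p = 9.46e-09).

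Psmb10 was 0.19 higher in hippocampus (adjusted p = 2.52e-04), Psme2 0.17 (adjusted p = 1.26e-05), Psmb5 on its bright probe set 0.13 (adjusted p = 2.56e-06) and Psmd14 0.11 (adjusted p = 0.00388). Psmb9 with no filter was 0.32 higher (adjusted p = 3.52e-06). Psmb7 with 0.05 and Psmc2 with 0.03 were not called. The lower ones were the dim probe sets of Psmb5, by -0.13 (adjusted p = 1.03e-04), and of Psmd9, by -0.09 (adjusted p = 0.0274). The Psmd9 call was lost without congenic animal 3 or 4 or NP animal 5 or 7, with adjusted p of 0.0507 to 0.0809, and after quantile normalization, with 0.0502. That of Psmd14 was lost after quantile normalization too (0.05, adjusted p = 0.116), where Psmb5 and Psme2 differed by 0.08 and 0.09. In hippocampus 9 of 10 oligodendrocyte genes and 7 of 9 astrocyte genes were higher, 1 astrocyte gene was lower, and 0 of 12 microglial genes were higher and 1 lower. The mean signal of 3 choroid plexus genes had a median of 11.72 in hippocampus (8.54 to 12.34), against 8.59 in the other regions (8.03 to 11.02). The part of these cell types in the hippocampal values was not tested.

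Frontal cortex had 27 members higher, against 35.6% of all probe sets, and 4 lower, against 25.7% of all, with a median of 0.10 beside 0.03. After quantile normalization 12 were higher and 6 lower, with a median of 0.02. Over the signal ranges used for striatum, 25.9% to 31.4% of all probe sets were then higher and 29.1% to 32.3% lower. The higher count therefore did not exceed the share of all probe sets after that scaling. Of the ATPases and of the beta ring 5 of 6 genes each were higher, of the alpha ring 4 of 7, of the non-ATPases 7 of 11, of the chaperones 2 of 3 and of the activators 0 of 3. After quantile normalization 3 ATPases, 2 beta ring, 2 alpha ring and 3 non-ATPase genes and 0 chaperones were. Psmc1 had 12.07, 12.10 and 12.38 in frontal cortex, against medians of 11.61 in striatum, 11.76 in accumbens, 11.99 in amygdala and 11.88 in hippocampus. It was 1.27-fold higher (0.35 ± 0.03, limma adjusted p = 6.48e-14), with overlap in amygdala alone, where the highest array had 12.18. Psma3, an alpha ring subunit, had 10.78, 11.07 and 11.47 and was 1.25-fold higher (0.32 ± 0.03, adjusted p = 9.62e-12). It overlapped with accumbens, amygdala and hippocampus. The dimmest probe set of Psmc6 was 0.33 ± 0.07 higher (adjusted p = 1.44e-04) and Psmb10 0.26 ± 0.04 (adjusted p = 9.32e-07).

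Psmd14 was 0.16 higher in frontal cortex (adjusted p = 5.16e-05) and 0.07 higher after quantile normalization, Psmb5 on its bright probe set 0.07 (adjusted p = 0.00378) and Psmb7 0.10 (adjusted p = 0.0286). The last 2 calls were lost after quantile normalization, with adjusted p of 0.502 and 0.369, and that of Psmb7 also without congenic animal 1 or 3 or NP animal 11, with adjusted p of 0.0550 to 0.0792. Psme2 with 0.02 and Psmc2 with 0.02 were not called. Psmc3ip, a partner protein known from meiotic recombination, was lower by -0.22 ± 0.04 (adjusted p = 3.81e-06), and the dim probe sets of Psmb5 and Psmd9 by -0.13 and -0.11. Psme1 was lower by -0.11 ± 0.05 (adjusted p = 0.0401), a call lost without any 1 of 8 animals (congenic 1, 4, 9 and 10 and NP 5, 7, 8 and 11), with adjusted p of 0.0520 to 0.110. After quantile normalization Psme1 differed by -0.20. In frontal cortex 8 of 8 endothelial genes were higher and 9 of 10 oligodendrocyte genes lower, and 5 of 12 microglial genes were lower and 1 higher. Their part in these values was not tested.

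As deposited, accumbens had fewer members called than any other region, 22, but after quantile normalization 29 were called there, against 24 in hippocampus and 18 in frontal cortex. Of the 48 members, 17 were lower, against 38.9% of all probe sets, and 5 were higher, against 23.5% of all, and the median was -0.03 beside -0.05 over all. The direction of the split depended on the scaling: after quantile normalization 22 members were higher and 7 lower, with a median of 0.06, while 32.7% of all probe sets were higher and 28.3% lower. The lower ones as deposited held 7 of the 11 non-ATPase genes and 3 of the 6 ATPases, but 1 of 7 alpha ring genes, 1 of 6 beta ring genes and 0 of 3 activators. After quantile normalization 2 non-ATPases and 1 ATPase were lower, and 5 alpha ring and 5 non-ATPase genes were higher.

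Psmd1, the scaffold subunit, had 9.82, 10.08 and 11.27 in accumbens, where the highest value was that of congenic animal 9 and the others reached 10.28. The medians were 10.52 in striatum, 10.55 in amygdala, 10.51 in hippocampus and 10.58 in frontal cortex, and the lowest value in those regions was 10.32. The other 11 accumbens arrays were thus below all arrays of the other regions. The difference was -0.38 ± 0.05 (limma adjusted p = 8.64e-08) and -0.48 without the 7 arrays. Psmc3, an ATPase, had 11.27, 11.44 and 11.74 and differed by -0.31 ± 0.03 (adjusted p = 4.05e-12). After quantile normalization it differed by -0.19. Neither of these was lowest in striatum.

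A single accumbens array decided the size of several other values. On the array of congenic animal 9, 7 member probe sets lay more than 1 log2 unit from the median of the other arrays of their group, and on no other array of the 60 did any. The share of all probe sets beyond that limit is not given here, so the count is no trait of the members. The array as a whole stood apart. Its median correlation with the other accumbens arrays was 0.831, against 0.963 or more for every other array within its region. Its Gapdh control had a 3' minus 5' signal of 4.56. Psmd8, a non-ATPase, had 8.82 there and 11.06 to 11.26 in the other congenic accumbens arrays. Its accumbens difference was -0.31 ± 0.10 (adjusted p = 0.00752), and -0.11 without that animal (adjusted p = 0.00146), and it was not called after quantile normalization (adjusted p = 0.110). The dimmer probe set of Psmd7, the partner of Psmd14, had 9.34 there and 10.50 to 10.84 in the others. It differed by -0.32 ± 0.06 (adjusted p = 1.95e-05), and by -0.20 without the animal (adjusted p = 3.18e-07). Psmb7 differed by -0.17 (adjusted p = 1.77e-04), by -0.11 without the animal, and was not called after quantile normalization (adjusted p = 0.0752). The same array had 11.41 for the probe set of Psmc6 with middle signal, against 10.30 to 10.65 in the others. That probe set was 0.24 ± 0.07 higher in accumbens (adjusted p = 0.00135), and its value without the 7 arrays was 0.11 (adjusted p = 0.0791).

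Of the other accumbens calls, the probe set of Psmd14 described so far was 0.09 higher (adjusted p = 0.0141). Its value without congenic animal 9 was 0.05 (adjusted p = 0.0863), while after quantile normalization it was 0.20 (adjusted p = 1.20e-07). The other probe set of Psmd14 among the members was not called, at -0.11 (adjusted p = 0.1185) and at 0.0021 without the 7 arrays. Psma2 was 0.10 higher (adjusted p = 0.0125), 0.19 after quantile normalization and 0.15 without the 7 arrays. Psmb10 was lower by -0.17 (adjusted p = 5.16e-04), by -0.10 after quantile normalization and by -0.24 without the 7 arrays. The dim probe set of Psmb5 was 0.30 ± 0.03 higher (adjusted p = 7.43e-13). That of Psmd9 was 0.20 higher, with an adjusted p of 3.25e-06, and 0.26 higher without the 7 arrays. Psme1 with -0.06, Psme2 with -0.01, the bright probe set of Psmb5 with -0.0048 and Psmc2 with 0.04 were not called. After quantile normalization 3 of these 4 were called higher: Psmc2 by 0.13 (adjusted p = 9.28e-05), Psme2 by 0.11 (adjusted p = 0.00269) and Psmb5 by 0.08 (adjusted p = 0.00125). Without the 7 arrays Psme1 was called lower (-0.09, adjusted p = 0.0378). Of the 12 neuronal genes 9 were lower in accumbens and 1 higher, and of the 8 meningeal genes 6 were higher. Their part in the accumbens values was not tested.

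Probe sets of 1 gene did not always run together. In 3 genes, called probe sets had opposite signs within a region: Psmb5 in striatum, amygdala, hippocampus and frontal cortex, Psmd9 in striatum, accumbens, amygdala and hippocampus, and Psmc6 in accumbens, with 0.24 and -0.24. Without the 7 arrays the Psmc6 values were 0.11, which was not called, and -0.42. In each case of Psmb5 and Psmd9 the probe set that went against the rest was the dimmer one, with means of 8.79 for Psmb5 and 8.27 for Psmd9. The second is, with Psmc3ip at 8.11 and the dimmest probe set of Psmc6 at 8.56, one of the 3 members just above the signal limit. Just below it lay Psmb9 at 7.64, a further probe set of Psmd14 at 7.57 and Psmb8 at 7.53. Dim probe sets below the limit also went against the bright ones in striatum with no filter: one of Psme1 was 0.24 higher, one of Psmc4 0.35 higher and one of Psmb5 0.10 higher. That of Psme1 differed by -0.15 in amygdala (limma adjusted p = 9.38e-04) and -0.21 in hippocampus (3.6e-06), where the bright one had 0.51 and 0.37. In accumbens it was 0.42 higher (1.04e-13), with -0.06 for the bright one. In frontal cortex both were lower, the dim one by -0.30. Whether these dim probe sets measure the same transcripts was not tested.

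Other genes of the pathway were counted from lists, by the same call. The shares of all probe sets to set beside these counts are those given above for each region: 26.3% higher and 43.3% lower in striatum, 29.1% and 18.6% in amygdala, 33.1% and 21.2% in hippocampus, 35.6% and 25.7% in frontal cortex, and 23.5% and 38.9% in accumbens. Of the core's assembly factors and its inhibitor, 6 genes in all, 6 of 6 were lower in striatum and 6 of 6 were higher in amygdala. In hippocampus and in frontal cortex 5 were higher and 0 lower, and in accumbens 3 were lower and 0 higher. In striatum Psmg1 and Psmg2, which pair to build the alpha ring, differed by -0.42 and -0.39 and Psmg4 by -0.39. The other 3 were Psmg3 with -0.38, Psmf1, the inhibitor, with -0.30 and Pomp, which helps to join the beta subunits to the alpha ring, with -0.25. After quantile normalization 3 were higher in amygdala, 3 in hippocampus, 2 in frontal cortex and 3 in accumbens, where 1 was lower. Of 13 ubiquitin factors bound to the proteasome, 4 were higher and 5 lower in striatum. Adrm1, a ubiquitin receptor of the particle, was higher there by 1.04 ± 0.05 (limma adjusted p = 8.02e-23), whereas Uchl5, the ubiquitin hydrolase it recruits, was lower by -0.38 (adjusted p = 1.03e-07; named after its value was seen). In accumbens 8 of the 13 were lower and 1 higher, with -0.62 for Akirin2, known for nuclear import of the proteasome, and -0.39 for Ubqln4, a shuttle for ubiquitin-tagged proteins. In amygdala 5 were higher and 3 lower, in frontal cortex 6 and 2, and in hippocampus 4 and 2. After quantile normalization 6 were higher and 4 lower in striatum, 3 and 4 in accumbens, 4 and 4 in amygdala, 2 and 4 in frontal cortex and 2 and 4 in hippocampus.

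Of the 8 regulators of proteasome genes, 2 were higher and 3 lower in striatum, with 0.56 for Mafg and -0.42 for Nfe2l2, which binds DNA together with small Maf proteins. In accumbens 1 was higher and 3 lower, in amygdala 2 and 2, in frontal cortex 3 and 2, and in hippocampus 2 and 3, with -0.31 for Stat3. Of 8 measured genes of class I antigen presentation, 1 was higher and 5 lower in striatum. B2m, the light chain of the class I molecule, differed by -0.46, Erap1, which trims the peptides, by -0.39 and Calr, a chaperone, by 0.23. In amygdala 4 of these 8 and in hippocampus 5 were higher and 0 lower, in frontal cortex 1 was higher and 4 lower, and in accumbens 2 were lower and 0 higher, with -0.35 for Calr. Of the ubiquitin genes and activating enzymes 2 were measured, Uba1 and Uba6. Both were lower in striatum, with -0.28 for Uba6, and both higher in amygdala. In hippocampus Uba1 was higher by 0.12, in frontal cortex 1 was higher and 1 lower, and in accumbens 1 was lower.

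Whether the congenic line differed from NP in these genes was tested on the mean of the 5 regions of each rat, 6 against 6, and in each region. No member was called by limma. In the mean over regions 0 of 48 members passed, against 0.123% of all probe sets. In the single regions 0 of 48 passed as well, against 0.0644% of all in striatum, 0.00537% in hippocampus, 0.0537% in frontal cortex, 0.0322% in amygdala and 0.00537% in accumbens. For a line difference that varied with region, 0 of 48 members were called by limma, against 0% of all probe sets. At an unadjusted p under 0.05 there were 4 of 48 members in the mean over regions, against 5.33% of all probe sets. There were 3 in striatum (4.86% of all), 3 in hippocampus (3.95%), 0 in frontal cortex (6.38%), 1 in amygdala (5.96%), 0 in accumbens (1.97%) and 2 for the variation with region (3.90%). No gene of the pathway lists was called for line in the mean over regions.

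The members' mean signal per rat was 11.05 to 11.11 in congenic rats (11.08 ± 0.02, SD, n = 6) and 11.07 to 11.14 in NP rats (11.10 ± 0.02, SD, n = 6), and the lines overlapped. The median line difference of the 48 members was -0.03, beside -0.0020 over all probe sets. The 95% intervals of the members' line differences in the mean over regions ran from -0.25 to 0.37, with a median half-width of 0.07, so differences in that mean of over 1.29-fold lay outside all of them. In single regions the median half-width was 0.12 in striatum, 0.12 in hippocampus, 0.11 in frontal cortex, 0.12 in amygdala and 0.18 in accumbens. The widest bounds in a single region were -1.21 for Psmd8 in accumbens and 0.61 for Psmd12 there. The accumbens line difference of Psmd8 was -0.44, and -0.05 without the 7 arrays.

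**Figure D4:**
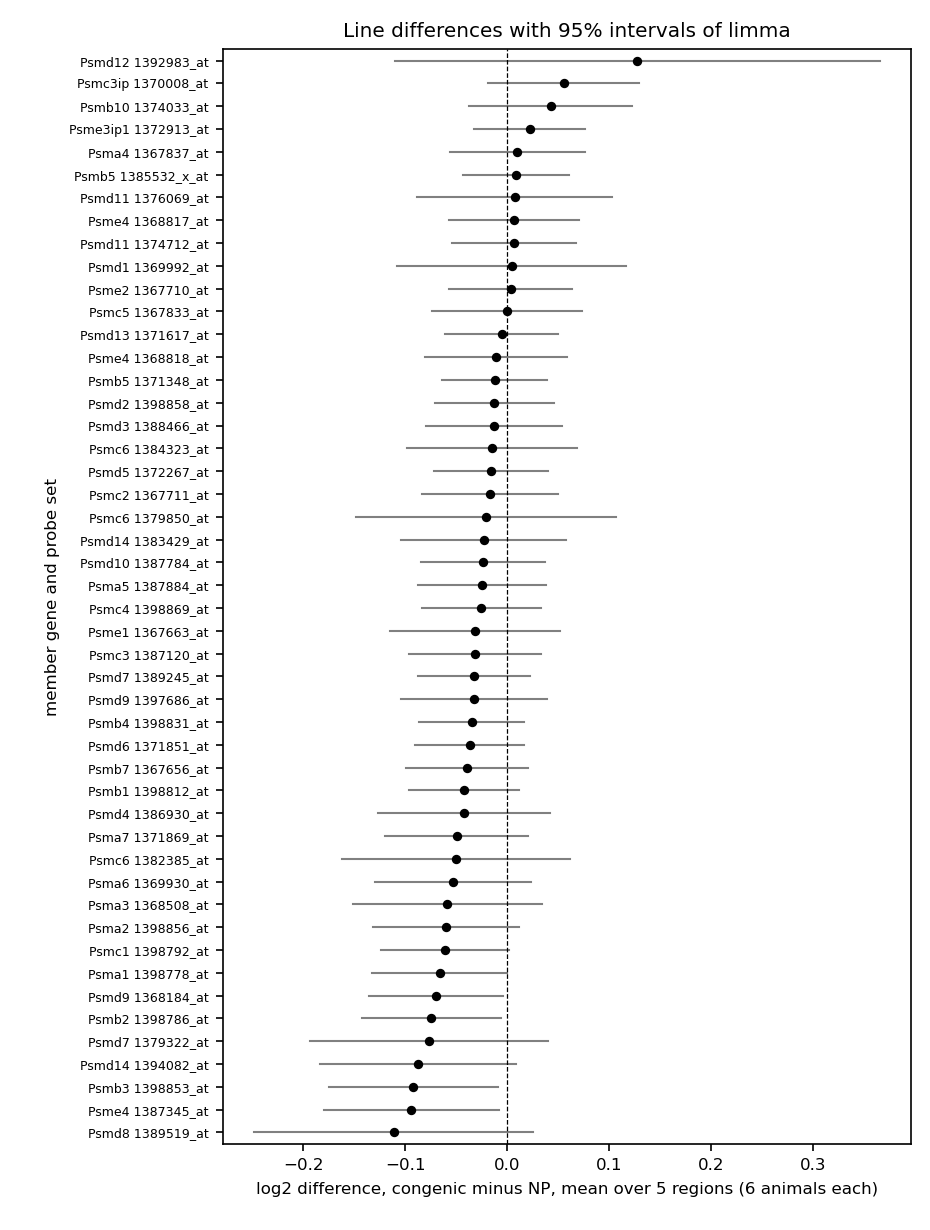
Difference between congenic and NP rats in the mean over 5 regions for the 48 member probe sets, on the log2 scale, with 95% intervals of limma (6 rats a line). The intervals lie between -0.25 and 0.37, and none of the members passed at an adjusted p under 0.05.

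The members with the smallest p in the mean over regions were Psmb3, Psme4 and Psmb2, all lower in congenic rats. Psmb3, a beta ring subunit, had 11.60, 11.67 and 11.81 in congenic rats and 11.68, 11.78 and 11.86 in NP rats, which overlap. It differed by -0.09 ± 0.04 (limma adjusted p = 0.911), and by -0.07 without the 7 arrays. Psme4, on its dimmest probe set, had 9.15, 9.35 and 9.44 in congenic rats and 9.37, 9.42 and 9.47 in NP rats, and differed by -0.09, and by -0.03 without the 7 arrays. Psmb2 had 11.92, 11.99 and 12.11 in congenic rats and 12.02, 12.07 and 12.12 in NP rats, and differed by -0.07, and by -0.03 without the 7 arrays. Psmc2, the one member on the chromosome of the congenic segment, had 12.84, 12.88 and 12.94 in congenic rats and 12.85, 12.88 and 13.01 in NP rats. Its difference was -0.02 (limma adjusted p = 0.968). Whether Psmc2 lies within the segment was not determined here.

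In single regions the members with the smallest p were Psmb1 in accumbens (-0.12, limma adjusted p = 0.946), Psmc1 in amygdala (-0.14, adjusted p = 0.809, and -0.06 without the 7 arrays), Psmd5 in frontal cortex (0.07, adjusted p = 0.834), Psmb5 on its bright probe set in hippocampus (-0.11, adjusted p = 0.982) and Psmc6 in striatum. Psmc6, an ATPase of the regulatory particle, has 3 probe sets among the members. In striatum the one of middle signal had 9.98, 10.24 and 10.44 in congenic rats and 10.36, 10.53 and 10.69 in NP rats, which overlap at their ends. It differed by -0.31 ± 0.08 (limma adjusted p = 0.626). The dimmest had 8.11, 8.25 and 8.57 in congenic rats and 8.44, 8.52 and 8.75 in NP rats, a difference of -0.26 ± 0.07 (adjusted p = 0.668). The brightest differed by -0.08. In hippocampus the one of middle signal ran the other way, with 10.15, 10.45 and 10.70 in congenic rats and 9.96, 10.23 and 10.48 in NP rats, a difference of 0.23. The variation of its line difference with region had a limma adjusted p of 0.998, and of 0.181 without the 7 arrays, which did not pass.

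**Figure D5:**
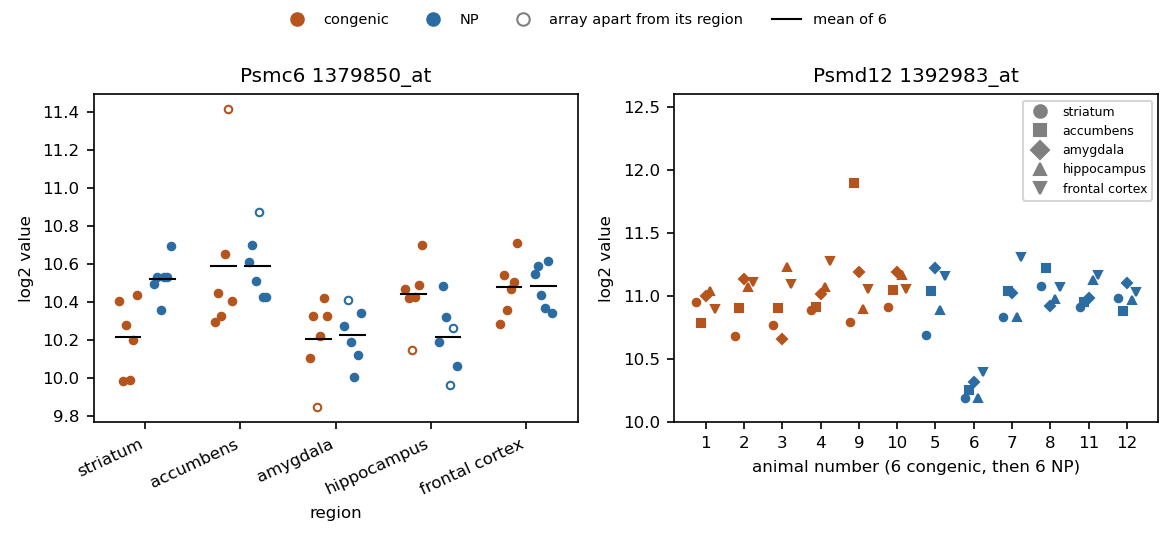
Log2 signal of the Psmc6 probe set of middle signal by region and line (6 rats a group) and of Psmd12 by animal, with 1 point for each of the 5 regions. Psmc6 is lower in congenic than in NP striatum with overlapping ends, and NP animal 6 has the lowest Psmd12 value of the 12 rats in every region, 10.19 to 10.39.

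Psmd12, a non-ATPase subunit, showed a difference between individual rats, found after its values were seen. NP animal 6 had the lowest signal of the 12 rats in all 5 regions. It had 10.19 in striatum, where the others had 10.68 to 11.08, 10.19 in hippocampus (10.83 to 11.23), 10.39 in frontal cortex (10.89 to 11.31), 10.32 in amygdala (10.66 to 11.22) and 10.25 in accumbens (10.78 to 11.90). Counting any of the 12 rats, a single rat was lowest in all 5 regions for 1 of 48 members (2.08%) and for 4 of all 18625 probe sets (0.0215%). The line difference of Psmd12 in the mean over regions was 0.13 ± 0.11 (limma adjusted p = 0.927), the widest interval of the members, and 0.0027 ± 0.04 without NP animal 6. In amygdala, frontal cortex and striatum it changed sign without it, to -0.02, -0.07 and -0.07. Whether the probes or the transcript differ in this rat was not tested.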

How the data were processed

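RNA of 5 brain regions from 12 rats was measured on 60 one-colour Affymetrix rat arrays. The authors deposited log2 values for 31099 probe sets, and their background correction and normalization are not given in the sources used here. All values were present, and the highest correlation between 2 arrays was 0.998, so each array was counted as a sample. The 57 array controls were left out. Probe sets were named from the platform's annotation by their only gene symbol. A further 6 probe sets of the families carry several symbols and are not analysed here.

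Probe sets with a mean at or above the 40th percentile (18625) were fitted with limma 3.58.1 in R 4.3.3 (lmFit and eBayes), tested on simulated data first, with Benjamini-Hochberg adjustment over all of them and a call at an adjusted p under 0.05. Regions were compared with the animal as a fixed block, since the labels give the same animal number to the 5 regions of 1 rat. After group means were removed, the mean correlation between arrays was 0.0139 over 120 pairs of 1 animal and -0.00184 over 1320 pairs of different animals. Lines were compared on the 12 animal means and within each region. Alternatives were quantile normalization, centring on array medians, no filter and a filter at the 60th percentile, a trended and robust prior, no animal block, a random one, animals 1 to 8 and 9 to 12 as a block, each animal left out and, added after the data were seen, the 7 arrays that stood apart left out.

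Named with values are members called for line, or else the 3 with the smallest p over regions and the 1 in each region. In each region contrast they are the 4 highest and 4 lowest called members. Psmb5 to Psmb10, Psme1, Psme2, Psmd14, members on chromosome 4, the 3 probe sets on each side of the signal limit, genes whose probe sets were called with opposite signs, and up to 3 genes a pathway list are named as well. For list counts, the probe set with the highest mean stands for a gene. The members and the lists (core assembly factors and inhibitor, bound ubiquitin factors, ubiquitin and activation, regulators, class I presentation and 10 cell type lists) were chosen with earlier results of these data known. Promoters are from RefSeq (GRCr8), the motifs were chosen after the data were seen, with the longer interferon and antioxidant cores searched first, and figures were drawn with matplotlib 3.10.9.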

Additional observations from a re-analysis of the deposited data

Results flagged for a closer look

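Of 28 sets of 6 values (the members' mean and the Gapdh measure in each region and line, and the animal means of 4 genes in each line), 5 had 1 value far from the others relative to the range of the set, and chance gives about 1 such case in 20 sets. The amygdala array of congenic animal 3 accounts for 2 of the 5. The Gapdh control's 3' minus 5' signal was 4.56 in the accumbens array of congenic animal 9, against -0.07 to -0.01 in the other congenic accumbens arrays. It was 0.510 in the hippocampus array of NP animal 11 (others -0.079 to -0.057), 0.263 in the striatum array of NP animal 7 (others 0.049 to 0.095) and -0.104 in the amygdala array of congenic animal 3 (others -0.036 to 0.003). The mean of the 48 proteasome members was 11.01 in the amygdala array of congenic animal 3, against 11.16 to 11.24 in the other congenic amygdala arrays. Without that array and the 6 others that stood apart, 39 members were higher in amygdala, against 31 with all arrays.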

How the results depend on the processing

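Of the counts of called members and the members' medians, 393 values under the alternatives stayed close to the main value and 33 moved. No alternative gave a line call among the members, at any region or in the mean. With quantile normalization, accumbens had 22 higher and 7 lower members, amygdala 5 lower, frontal cortex 18 called (12 higher, 6 lower), hippocampus 5 lower and striatum 3 higher. With the filter at the 60th percentile, accumbens had 3 higher, amygdala 1 lower, frontal cortex 1 lower, hippocampus 0 lower and striatum 0 higher, from fewer members tested. With array medians centred, striatum had 1 higher. Without the 7 arrays that stood apart, hippocampus had 4 lower and striatum 3 higher. With no replicate block, that is without the animal as a block, amygdala had 2 lower, and the block changed no line call. With 1 animal left out in turn, lower members numbered 2 to 3 in amygdala and 1 to 2 in hippocampus, and higher members 1 to 2 in striatum.

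Among the named region differences, 391 of 415 values kept direction and call, 14 lost the call, 3 gained it and 7 changed sign, all 7 with quantile normalization and all from differences that were not called as deposited. These were Psmb5 (0.0845), Psme1 (0.0522) and Psme2 (0.1071) in accumbens, Psmd14 (-0.0162) in amygdala, Psmc2 (-0.0359) and Psme2 (-0.0609) in frontal cortex and Psmc2 (-0.0223) in hippocampus. Among the line differences 2 changed sign with it, those of Psmc2 in accumbens (0.0116) and in frontal cortex (-0.0054). With 1 animal left out, differences near 0 changed sign. Those of Psmb5 and Psme2 in accumbens ran from -0.018 to 0.0044 and from -0.0202 to 0.0051. The line difference of Psmc2 ran from -0.0286 to 0.0057 in the mean over regions, from -0.0912 (without congenic animal 9) to 0.0151 in accumbens, from -0.0056 to 0.0282 in frontal cortex and from -0.0506 to 0.0129 in striatum. The normalization used by the authors is unknown, and dim probe sets, 6 rats a line and 7 arrays that stood apart limit the precision. The causes of these changes were not tested.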

Other observations

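Within groups, that is after the mean of each region and line was removed, the members varied together from array to array. The median correlation over the 1128 pairs of members was 0.147 on all 60 arrays and 0.184 on the 53 left without the 7 arrays that stood apart, beside 0.009 and 0.014 over all probe sets. Of the pairs, 65.1% were above 0 (72.7% on 53 arrays), beside 51.2% (52.5%) over all. Psme1 and Psme2 had a correlation of 0.63 (0.43 on 53 arrays) and Psma1 and Psma2 of 0.40 (0.58). With the mean of the other members, Psmb1 had the highest correlation (0.74), Psmd6 the next (0.71) and Psmd12 the lowest (-0.13) on all 60 arrays. On the 53, Psma2 had the highest (0.84), followed by Psmc3 and Psmc2 (0.77 each), and Psmb1 had 0.73. The probe sets of Psmc6 had correlations with each other of 0.60 to 0.77, and of 0.33 to 0.53 on 53 arrays. Those of the other genes with several probe sets were lower on all 60 arrays. They were 0.33 for Psmd11 (0.44 on 53 arrays), 0.26 for Psmb5 (0.26) and 0.16 for Psmd9 (0.10). For Psmd7 the correlation was -0.04 (0.28), for Psmd14 -0.28 (0.64) and for Psme4 -0.40 to 0.48 (0.18 to 0.60). Among genes that are no members, those with the highest correlation with the members' mean were Snx2 and Tbcb (0.78 each), Mrpl41 and Vdac3 (0.75 each), and on 53 arrays Mrpl49 (0.80), Vdac3 (0.79) and Mrpl41 (0.78). The pairs share arrays, signal range and array-wide scaling, and the correlations are descriptions with no test.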
